A study of Oryctolagus cuniculus with 4 samples.

Results

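CD74 and HLA-DRA, the 2 genes described here, belong to the MHC class II pathway and were found by their symbols among the 18475 genes of the rabbit annotation. Each symbol matched 1 gene (CD74, ENSOCUG00000003863 and HLA-DRA, ENSOCUG00000009103). The levels were read in bladder mucosa of adult New Zealand rabbits by droplet-based single-cell RNA sequencing, in 2 injured samples and 2 normal samples. The injured tissue was collected on day 10 after a focal piece of the mucosa had been cut out, when new urothelium had just closed over the wound, and the normal tissue came from uninjured bladder. No transgene, drug or diet was named for either group, and both were dissociated with collagenase II and sequenced with the same 3′ kit. The sources used here do not say whether each library came from 1 rabbit, so the p-values below measure only the spread between libraries. They also give no sex.

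MHC class II molecules carry peptides from ingested proteins to the cell surface, where helper T cells read them. HLA-DRA encodes the alpha chain of the DR molecule. CD74, the invariant chain, holds newly made class II molecules in the endoplasmic reticulum, fills their groove and steers them to the endosome, where proteases trim it away and HLA-DM exchanges its last fragment for a peptide. Macrophages, dendritic cells and B cells make these proteins constitutively, under the coactivator CIITA. Fibroblasts, endothelium and epithelium can be induced to make them by interferon gamma.

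The 4 libraries held 5823 to 6884 barcodes and 28745017 to 47881609 UMIs (unique molecular identifiers, each counting 1 captured transcript), and 4308 to 6081 cells per library were kept. Normal 1 was the shallowest, with a median of 4814 UMIs per cell against 6755 to 7186 in the other libraries. Among the kept cells, 51 barcodes occurred in more than 1 library. The cells formed 27 clusters, with CD74, HLA-DRA and the other class II genes kept out of the clustering, and clusters were grouped into classes by marker genes. Although the tissue is labelled urothelium, epithelial cells made up 2.84% to 10.2% of the cells of a library, beside 7154 fibroblasts, 5275 endothelial cells and 2121 smooth muscle cells and pericytes in all. A level is given as CPM, the UMIs of the gene per 1000000 UMIs summed over the cells of a class in a library.

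Cluster 14, a group of 408 cells, held more CD74 per UMI than any class. The CD74 level there was 4600 CPM in injured 1, 4510 in injured 2, 5040 in normal 1 and 6098 in normal 2 (mean 5062 ± 728, SD, n = 4). The HLA-DRA level was 9965, 7338, 11070 and 12530 CPM in the same order (mean 10226 ± 2193, SD, n = 4). The normal libraries lay above the injured libraries for both genes, as they did for 15.5% of the 3705 genes tested in the cluster. The leading genes of cluster 14 were TNNI1, HLA-DRA, DNASE1L3, CD74 and LY86, of which HLA-DRA and CD74 are the members themselves. The cluster was left unnamed. Its best-scoring class was neutrophil, with 4 markers raised, but its first 10 leading genes held no neutrophil marker and held the macrophage marker AIF1. Of the dendritic cell markers searched for, only XCR1 and CCR7 were in the annotation, and a name needed 3 raised markers. XCR1, a chemokine receptor of cross-presenting dendritic cells, was at 21.4 CPM in it, against 0 in the macrophage and B cell classes. CCR7, which guides dendritic cells to lymph nodes, was at 28.7 CPM, against 8.92 in macrophages and 33.6 in B cells. Of the mast cell markers, KIT and MS4A2 were at 78.0 and 55.6 CPM in cluster 14, and HPGDS, HDC and CPA3 at 0.180, 0.180 and 0. The macrophage markers were uneven in cluster 14. AIF1 was at 1913 CPM and ARG1 at 786, against 2216 and 2660 in the macrophage class. CSF1R and MRC1 were at 27.4 and 19.97 CPM, against 653 and 732 there. C1QA, C1QB, C1QC and CD163 were at 1.82, 0.648, 0.18 and 0.234 CPM, against 2211, 947, 386 and 115.

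Macrophages, 1014 cells marked by C1QA, CSF1R and MRC1, came next. Their CD74 level was 2884 CPM in injured 1, 2461 in injured 2, 2607 in normal 1 and 2673 in normal 2 (mean 2656 ± 176, SD, n = 4). The HLA-DRA level of the macrophages was 5528, 3920, 4715 and 4597 CPM (mean 4690 ± 659, SD, n = 4). Injured and normal libraries overlapped for both genes, and the libraries stayed close together. In every library cluster 14 lay above the macrophages, by 1.59 to 2.28 times for CD74 and by 1.80 to 2.73 times for HLA-DRA.

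A macrophage carried both transcripts almost without exception. Of the macrophages, 98.4% had a UMI of each gene, as had 98.8% of the cells of cluster 14 and 92.3% of the 220 B cells. Within the macrophages, the 319 cells with a UMI of C1QA, C1QB or C1QC, the complement genes of resident macrophages, had a CD74 level of 2468 ± 501 CPM (SD, n = 4), and the 695 cells without one had 2708 ± 207. For HLA-DRA these were 3828 ± 1561 and 5081 ± 802 CPM. Both groups of cells came from the same libraries. HLA-DRA in cells with and without such a UMI was at 5626 and 5482 CPM in injured 1 and at 3597 and 3996 in injured 2. In normal 1 it was at 1861 and 5847 CPM, and in normal 2 at 4226 and 4998. CD74 was at 2952 and 2852, 2325 and 2493, 1829 and 2915, and 2766 and 2572 CPM in the same order of libraries. The direction thus varied between libraries for both genes, and the paired differences were not tested.

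B cells, marked by MS4A1 and the immunoglobulin joining chain JCHAIN, reached a CD74 level of 1700 CPM in injured 1 and 1829 CPM in injured 2. Their HLA-DRA level was 3016 and 2343 CPM. The normal libraries held only 12 and 7 B cells, with CD74 at 1347 and 2382 CPM, and these few cells do not allow an estimate for normal tissue. Each of the 4 CD74 values lay below the macrophage value of its library.

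Neutrophils, marked by S100A8 and S100A12, were shallow cells with a median of 669 UMIs in injured 1 and 802 in injured 2. Their CD74 level was 604 and 366 CPM there, from 66 and 19 UMIs. HLA-DRA was at 632 CPM in injured 1 but at 19.2 CPM in injured 2, where it rested on 1 UMI. The 2 libraries thus differed more for HLA-DRA than for CD74 in this class.

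**Figure D1:**
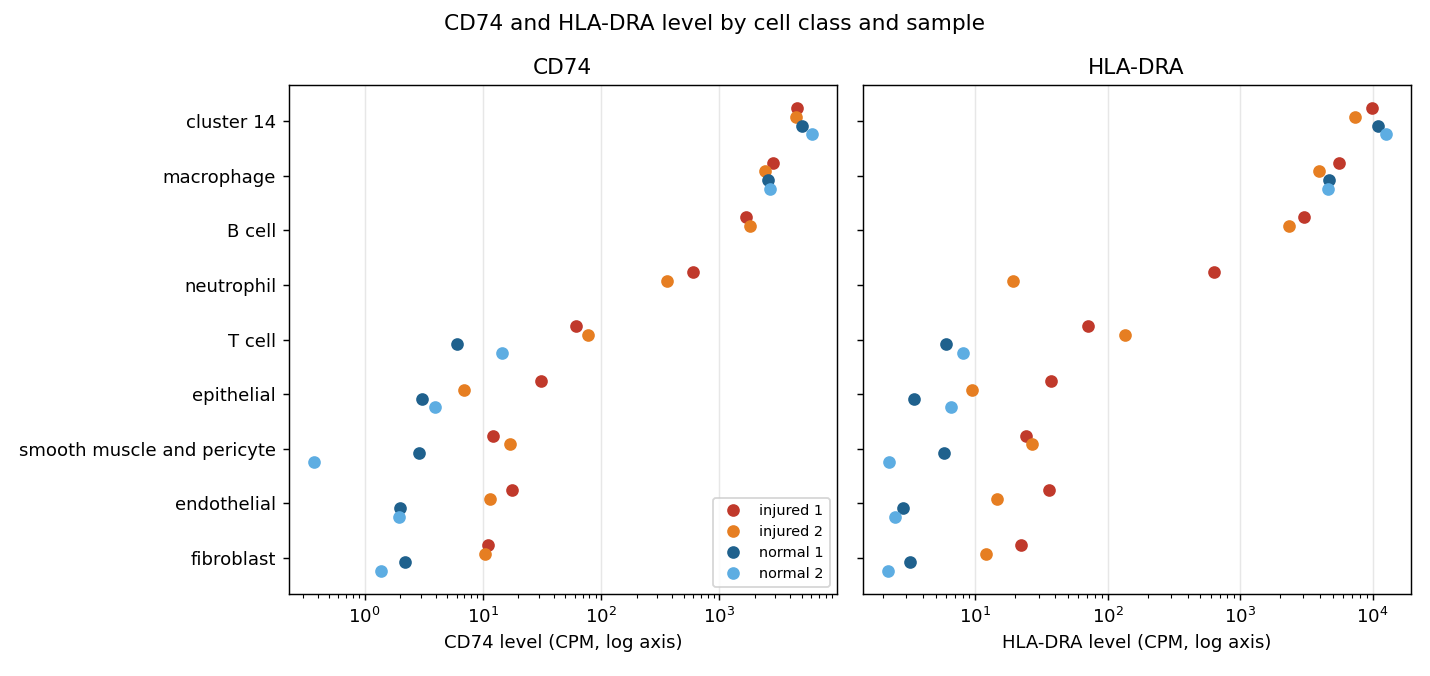
CD74 (left) and HLA-DRA (right) level of each cell class in CPM, on a log axis, with 1 point per library with at least 20 cells of the class (red and orange, injured; dark and light blue, normal). Cluster 14, macrophages and B cells lie above 1000 CPM for both genes, and fibroblasts, endothelium, epithelium, smooth muscle and pericytes below 40 CPM.

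The levels in cells that are not leukocytes were far lower. Fibroblasts had CD74 at 11 CPM in injured 1, 10.5 in injured 2, 2.20 in normal 1 and 1.38 in normal 2. Endothelial cells, marked by CDH5 and VWF, had 17.7, 11.6, 1.98 and 1.95 CPM. Epithelial cells had 30.9, 6.94, 3.03 and 3.95 CPM, and smooth muscle cells and pericytes had 12.2, 16.99, 2.90 and 0.372 CPM. Both injured libraries lay above both normal libraries in each of these 4 classes. Of all genes tested, 16.7% had this order in fibroblasts, 23.2% in endothelium, 39.4% in epithelium and 20.3% in smooth muscle cells and pericytes.

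HLA-DRA followed the same order of libraries. Its level in fibroblasts was 21.9 CPM in injured 1, 11.95 in injured 2, 3.21 in normal 1 and 2.17 in normal 2, and in endothelial cells it was 36.0, 14.6, 2.82 and 2.45 CPM. Epithelial cells had 37.5, 9.44, 3.41 and 6.58 CPM, and smooth muscle cells and pericytes had 24.0, 26.9, 5.80 and 2.23 CPM. Again no injured value fell among the normal ones, an order whose share over all genes is given above. The macrophage level of CD74 exceeded that of fibroblasts of the same library 235 to 1930 times, that of endothelial cells 163 to 1373 times and that of epithelial cells 93.3 to 859 times.

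T cells lay between these classes and the antigen-presenting cells. They had CD74 at 61.7 CPM in injured 1, 78.0 in injured 2, 6.04 in normal 1 and 14.5 in normal 2, and HLA-DRA at 70.7, 134.5, 6.04 and 8.04 CPM. The injured libraries lay above the normal ones for both, as for 29.9% of the genes tested in T cells. Few T cells carried CD74: a CD74 UMI was found in 12.5% of 601 T cells of injured 1 (Wilson 95% interval 10.1% to 15.4%) and in 3.57% of 308 of injured 2 (2.01% to 6.28%). In injured 2 the 127 CD74 UMIs of the class were thus held by 11 cells.

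The remaining cells gave low or thinly supported values. Cluster 5, 1603 unnamed cells led by PTPRQ and HHIP, had CD74 at 32.3 CPM in injured 1, 4.91 in injured 2, 2.11 in normal 1 and 1.61 in normal 2, and in injured 1 2 cells held 89.7% of its CD74 UMIs. Cluster 15, 386 shallow cells with a median of 869 UMIs, had 49.0 and 118 CPM in the injured libraries from 7 and 14 UMIs, and the normal libraries together gave 2 UMIs. Mast cells, marked by HDC and FCER1A, had 10 CD74 UMIs in 37 cells of injured 1 and 1 in 44 cells of injured 2. Neurones or glia had 3 and 12 CD74 UMIs in 37 and 47 cells of the injured libraries, and lymphatic endothelial cells had 2 in 28 cells of injured 1. Cluster 19, led by the cell division genes ANLN and DIAPH3, had a mean CD74 level of 3.63 ± 2.64 CPM (SD, n = 4).

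Among the non-immune classes the order of levels was not resolved. On the log2(CPM + 10) scale, CD74 in endothelium exceeded that in fibroblasts of the same library by 0.13 ± 0.19 (SD, n = 4, higher in 3 of 4 libraries, exact sign-flip p = 0.25, two-sided), and in epithelium by 0.27 ± 0.52 (3 of 4, exact p = 0.375). HLA-DRA exceeded the fibroblast level by 0.17 ± 0.25 in endothelium and by 0.22 ± 0.35 in epithelium (3 of 4 libraries and exact p = 0.375 for each). With 4 libraries this test cannot go below 0.125, and after Benjamini-Hochberg adjustment over the 4 comparisons each p was 0.375. Epithelial, smooth muscle, endothelial and fibroblast means (11.2 ± 13.2, 8.11 ± 7.80, 8.30 ± 7.72 and 6.27 ± 5.18 CPM of CD74, SD, n = 4) each lay within the spread of the others.

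Clusters within a class were compared by their means over the 4 libraries, whose SDs take in both injured and normal tissue. The endothelial cluster led by SELP and SELE, adhesion genes of venules that capture leukocytes, had a mean CD74 level of 10.2 ± 9.36 CPM. The cluster led by ESM1 and KDR, genes of capillary and sprouting endothelium, had 7.15 ± 8.34, and the cluster with BMX and NOS3 had 3.86 ± 2.27 (SD, n = 4). In injured 1 and injured 2 alone these levels were 18.6 and 18.1 CPM for the SELP cluster, 19.4 and 5.35 for the ESM1 cluster and 6.44 and 4.91 for the BMX cluster. In the epithelium the cluster with UPK3B, a uroplakin of the luminal layers, had 15.6 ± 15.1 CPM, and the cluster with KRT5, a keratin of basal cells, had 8.03 ± 10.6. Epithelial cells with a KRT5 UMI and no uroplakin UMI had 6.35 ± 8.08 CPM of CD74, and those with a uroplakin UMI and no KRT5 UMI had 9.81 ± 14.4.

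Nearly all transcripts of both genes sat in leukocytes. Leukocyte classes together with cluster 14 and cluster 21, a small unnamed cluster led by STAP1, CD69 and IL1RL1, made up 4.73% to 25.1% of the cells of a library and held 96.3% to 98.3% of the CD74 UMIs and 96.9% to 98.9% of the HLA-DRA UMIs. The fibroblasts, 22.7% to 38.7% of the cells, held 0.356% to 1.28% of the CD74 UMIs. In injured 1 macrophages held 63.6% of the CD74 UMIs and cluster 14 held 28.8%, whereas in normal 1 these shares were 27.9% and 68.2%.

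**Figure D2:**
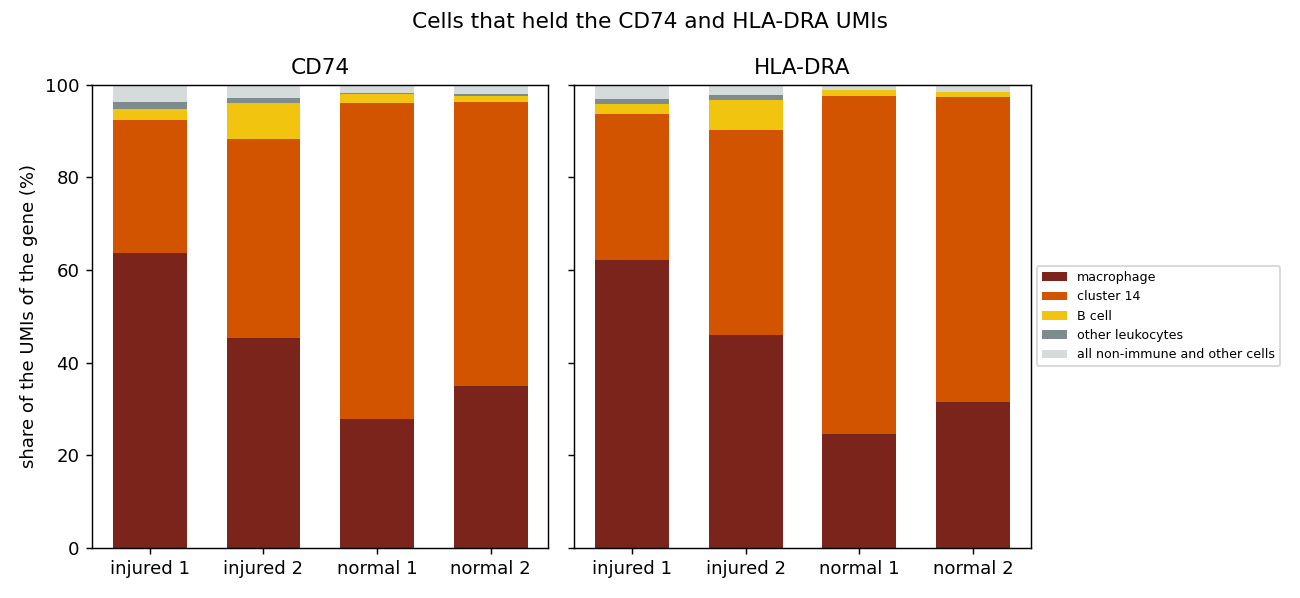
Share of all CD74 UMIs (left) and HLA-DRA UMIs (right) of a library, in percent, held by macrophages, cluster 14, B cells, other leukocytes and all remaining cells, with 1 stacked bar per library. Cluster 14 holds the largest share in both normal libraries and macrophages hold it in both injured libraries.

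Counted over all cells, CD74 was at 383 CPM in injured 1, 334 in injured 2, 125 in normal 1 and 85.8 in normal 2. HLA-DRA was at 753, 526, 256 and 164 CPM. The injured libraries lay above the normal ones, with mean log2 differences of 1.70 for CD74 and 1.57 for HLA-DRA (exact permutation p = 0.333 for each, two-sided, n = 2 and 2, the smallest p this design allows). Macrophages made up 8.27% and 6.51% of the cells in the injured libraries and 1.65% and 1.33% in the normal ones, and cluster 14 made up 2.29%, 3.07%, 1.39% and 0.647%. Shares of cells in a dissociated sample and levels per cell both enter these totals. The share of all genes with the injured libraries above the normal ones was not computed for all cells together.

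The comparison of injured with normal tissue within a class asks whether the level per UMI changed as well. The UMIs of each class were summed per library and tested across all genes with edgeR's quasi-likelihood test, with Benjamini-Hochberg adjustment over the genes tested and a threshold of 0.05. In macrophages the log2 fold change, injured against normal, was −0.08 ± 0.24 for CD74 and −0.08 ± 0.25 for HLA-DRA (SE, edgeR adjusted p = 0.930 and 0.933), and 2 of 4842 genes (0.0413%) passed in this class. In cluster 14 it was −0.42 ± 0.22 and −0.59 ± 0.21 (SE, edgeR adjusted p = 0.477 and 0.318), and 2 of 3705 genes (0.054%) passed. Neither member passed in either class, nor with DESeq2 (adjusted p = 0.999 in macrophages and 1.00 and 0.657 in cluster 14), which called 38 genes (0.817%) and 43 genes (1.16%), and the macrophage values differed by less than the spread between libraries.

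In the non-immune classes the fold changes were larger, and again neither gene passed. In fibroblasts the log2 fold change was 2.76 ± 0.36 for CD74 and 2.81 ± 0.43 for HLA-DRA (SE, edgeR adjusted p = 0.0953 and 0.120), where 8 of 8427 genes (0.0949%) passed and 876 had an unadjusted p under 0.05. Endothelial cells gave 2.81 ± 0.36 and 3.19 ± 0.50 (edgeR adjusted p = 0.504 for both), where 0 of 7431 genes (0%) passed and 503 had an unadjusted p under 0.05. DESeq2, run as an alternative, called both members higher in injured fibroblasts (adjusted p = 3.75e-05 and 1.64e-05), with 234 genes called in all (2.78%). It also called both in endothelium (6.33e-05 and 3.80e-06), with 50 genes called (0.673%). In fibroblasts edgeR without the filter on low counts also called both (2.79, adjusted p = 1.42e-07, and 2.85, 5.55e-09). In endothelium edgeR called both without injured 2 (adjusted p = 0.0252 for CD74 and 0.00341 for HLA-DRA). The call thus depended on the tool in both classes, on the filter in fibroblasts and on 1 library in endothelium, among other settings.

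In epithelium the log2 fold change was 2.18 ± 0.74 for CD74 and 1.98 ± 0.73 for HLA-DRA (SE, edgeR adjusted p = 0.181 and 0.211), where 117 of 7046 genes (1.66%) passed. This difference rested largely on injured 1. Without that library the values were 0.81 and 0.73 (edgeR adjusted p = 0.881 and 0.900). DESeq2 did not call either member in epithelium (adjusted p = 0.0667 and 0.0954), with 513 genes called (7.28%). Without the filter on low counts edgeR called both (2.29, adjusted p = 3.53e-05, and 2.09, 6.09e-05) among 967 genes.

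Smooth muscle cells and pericytes gave 3.35 ± 0.69 for CD74 and 2.77 ± 0.45 for HLA-DRA (SE, edgeR adjusted p = 0.233 and 0.181), where 0 of 6509 genes (0%) passed, 613 had an unadjusted p under 0.05 and DESeq2 called 78 genes (1.25%), both members among them (adjusted p = 0.0275 and 0.00407). The CD74 value rested on 1 UMI in normal 2, and without that library it was 2.39 (edgeR adjusted p = 0.0471) and HLA-DRA 2.21 (0.0204). Without normal 1 the values were 5.11 (0.0716) and 3.46 (0.0499), and without the filter on low counts edgeR called both (3.38, adjusted p = 9.24e-07, and 2.80, 2.37e-07). T cells gave 2.53 ± 0.46 and 3.71 ± 0.59 (SE, edgeR adjusted p = 0.0594 and 0.0504), where 36 of 4886 genes (0.737%) passed, and DESeq2 called both members (adjusted p = 0.0102 and 0.000185) among 172 genes (3.52%). The T cell values fell on the other side of the threshold when 1 library was left out, for example without injured 1 (2.82, adjusted p = 0.000809, and 4.21, 6.53e-08), without injured 2 (2.34, 0.0138, and 3.15, 0.000505) and without normal 2 (3.49, 0.0164, and 4.04, 0.0304). They were smaller without the top 5% of doublet scores (1.73, adjusted p = 0.246, and 2.77, 0.210) and when genes lacking a symbol were left out of the clustering (0.88, 0.662, and 0.15, 0.972).

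**Figure D3:**
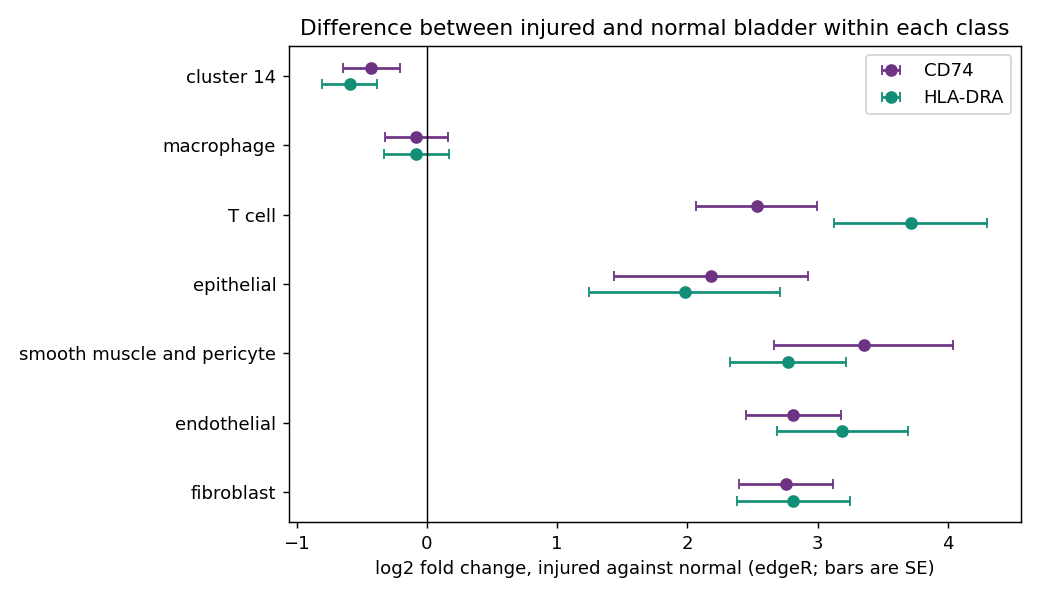
Log2 fold change of CD74 (purple) and HLA-DRA (green), injured against normal, in each class as fitted by edgeR, with bars for the SE. Macrophages lie at −0.08 for both genes, cluster 14 at −0.42 and −0.59, and the other 5 classes between 1.98 and 3.71, none of them past the threshold of 0.05.

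The change in 1 non-immune class was also set against that in another by an interaction term. The CD74 change in endothelium differed from that in fibroblasts by 0.01 ± 0.52 on the log2 scale and the HLA-DRA change by 0.30 ± 0.39 (SE, edgeR adjusted p = 1 and 0.835), in a test that called 0.115% of genes. Epithelium differed from fibroblasts by −0.76 ± 0.83 and −0.96 ± 0.62 (edgeR adjusted p = 0.685 and 0.468, with 1.99% of genes called) and from endothelium by −0.81 ± 0.63 and −1.23 ± 0.51 (0.608 and 0.339, with 0.345% called). None of these 6 differences passed. The SEs are wide enough that these data do not show the changes to be alike either.

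A handful of cells held much of the signal of the non-immune classes. In fibroblasts 10 of 7154 cells (0.140%) had 10 or more UMIs of CD74 or HLA-DRA, and they held 51.7% of the CD74 UMIs and 45.9% of the HLA-DRA UMIs of the class. Of those 10 cells, 7 also had a UMI of PTPRC, the pan-leukocyte gene CD45, and 8 had doublet scores in the top 5% of their library. In endothelium 6 cells held 51.2% and 65.3%, in epithelium 9 cells held 35.1% and 62.3%, and in smooth muscle cells and pericytes 2 cells held 52.1% and 46.7%. A PTPRC UMI was found in 3 of these 6 endothelial, 5 of the 9 epithelial and 1 of the 2 smooth muscle cells, and 4, 2 and 1 of them had doublet scores in the top 5%. A UMI of at least 1 of 8 leukocyte genes, PTPRC and CD14 among them, was found in all 10, 6, 9 and 2 cells. CD14 alone was found in 44.2% of all endothelial cells. All but 1 of the cells with 10 or more UMIs, an epithelial cell of normal 2, came from the injured libraries.

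With those cells set aside the levels of the injured libraries and of normal 2 epithelium were lower, and in each class both injured libraries lay above both normal libraries. The share of all genes with this order was not computed after the removal. In the full classes it was 16.7% to 39.4%. CD74 in the remaining fibroblasts was at 4.85 CPM in injured 1, 4.502 in injured 2, 2.20 in normal 1 and 1.38 in normal 2, and in the remaining endothelial cells at 6.22, 5.28, 1.98 and 1.95 CPM. The remaining epithelial cells had 19.4, 5.36, 3.03 and 1.32 CPM of CD74 and 11.6, 6.25, 3.41 and 0.331 CPM of HLA-DRA. Setting aside cells by the genes under study lowers the level by construction, so these values are given as a description.

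**Figure D4:**
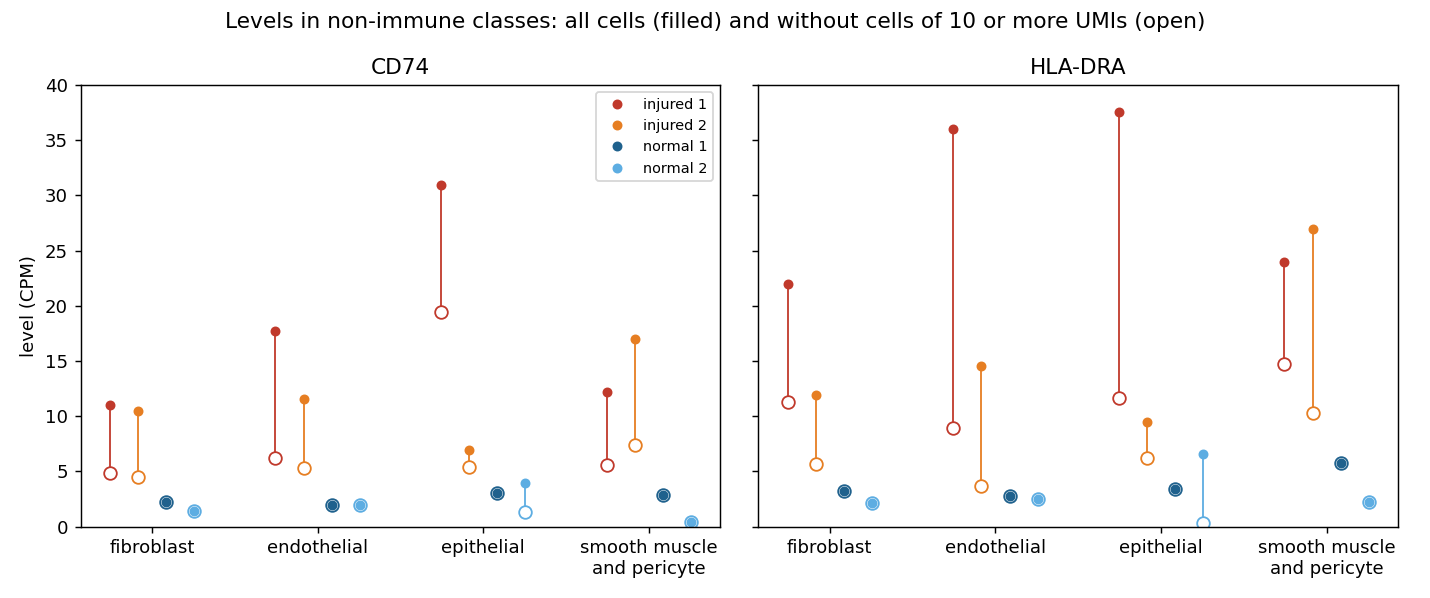
CD74 (left) and HLA-DRA (right) level in CPM of the 4 non-immune classes in each library, for all cells (filled points) and without the cells that had 10 or more UMIs of either gene (open points), joined by a line. Injured 1 endothelium drops from 36.0 to 8.89 CPM of HLA-DRA. Within each class the open points of the injured libraries lie above those of the normal libraries, an order whose share over all genes was not computed.

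Leaving out cells by doublet score or by a PTPRC UMI gave the same order in the fibroblasts, again without a share over all genes. The PTPRC measure did not use the members, whereas the doublet scores were computed from counts that included them. With the top 5% of doublet scores removed, CD74 was at 6.54, 4.02, 1.66 and 1.41 CPM (log2 fold change 1.90, edgeR adjusted p = 0.195), and without cells with a PTPRC UMI at 8.59, 4.06, 2.21 and 1.39 CPM (1.99, 0.252). For HLA-DRA in fibroblasts the values were 2.03 and 2.36 (edgeR adjusted p = 0.278 and 0.303). In endothelium the CD74 fold change was 1.76 without the high doublet scores and 2.23 without PTPRC UMIs (edgeR adjusted p = 0.540 and 0.545), and in epithelium it was 2.25 and 1.92 (0.148 and 0.164). HLA-DRA in endothelium without the high doublet scores was at 15.2, 3.59, 2.98 and 2.49 CPM (log2 fold change 1.74, edgeR adjusted p = 0.737), where injured 2 lay close to the normal libraries. Without PTPRC UMIs its fold change was 2.45 (0.346), and in epithelium the values of HLA-DRA were 1.98 and 1.48 (0.278 and 0.268).

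Fold changes of a list of 8 leukocyte genes were read beside those of the members. In fibroblasts the log2 fold change was 3.33 for PTPRC, 3.82 for CORO1A, a leukocyte coronin, 3.17 for FCER1G, an Fc receptor subunit, 1.84 for AIF1, a macrophage gene, 0.47 for CD14 and 0.21 for C1QA. None of them passed the test. These 6 had a median of 2.51, beside −0.0003 for all genes tested. The medians were 2.43 over 4 genes in endothelium, 2.92 over 3 in smooth muscle cells and pericytes and −0.48 over 4 in epithelium. Only genes that passed the filter on low counts enter these medians. CORO1A in fibroblasts was at 6.11 and 3.70 CPM in the injured libraries and at 0.200 and 0.421 in the normal ones. Genes that pass through the injured libraries alone favour a positive median, so the medians are a description. In epithelium only C1QA (−1.99), C1QB (−0.63), CD14 (−0.32) and AIF1 (0.48) were tested, and in smooth muscle cells and pericytes CD14 was at −0.50, and again none passed. Summed without CD14, which endothelial cells carried at 136 CPM (81.2 to 217), the leukocyte genes were at 10.6 ± 8.45 CPM in fibroblasts, 10.9 ± 7.88 in endothelium, 18.8 ± 17.6 in epithelium and 16.3 ± 16.7 in smooth muscle cells and pericytes, against 3861 ± 605 in leukocytes (SD, n = 4).

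CD74 UMIs per UMI of those leukocyte genes, relative to the same ratio in the leukocytes of the library, were 1.01 ± 0.38 in fibroblasts, 1.26 ± 0.83 in endothelium, 1.64 ± 0.97 in epithelium and 1.05 ± 0.80 in smooth muscle cells and pericytes (SD, n = 4). For HLA-DRA the ratios were 0.837 ± 0.352, 1.10 ± 0.97, 1.11 ± 0.66 and 1.09 ± 0.71. Means near 1 covered libraries that differed. In injured 1, injured 2, normal 1 and normal 2 the endothelial HLA-DRA ratio was 2.53, 0.783, 0.370 and 0.706. The CD74 ratio of smooth muscle cells and pericytes was 0.700, 1.76, 1.66 and 0.0934. Some ratios rested on few leukocyte UMIs, with 4 in smooth muscle cells and pericytes and 10 in epithelium of normal 1. The epithelial CD74 ratio was 2.24 in injured 1, 2.01 in injured 2, 2.13 in normal 1 and 0.204 in normal 2, so 3 libraries lay near 2 and normal 2 far below. With CD14 counted in, the CD74 ratio was 0.877 ± 0.477 in fibroblasts and 0.111 ± 0.095 in endothelium. The part of leukocyte transcripts in the non-immune levels was not tested further.

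Shares of cells with a UMI were low in all non-immune classes and varied with depth. A CD74 UMI was found in 3.99% of fibroblasts of injured 1 (Wilson 95% interval 3.18% to 4.99%) and in 0.943% of those of normal 2 (0.623% to 1.42%), at median depths of 7926 and 6899 UMIs. Thinned to 1000 UMIs per cell these were 0.721% and 0.146%. In epithelium of injured 1, at a median of 11932 UMIs, the share was 19.8% (16.7% to 23.3%), and after thinning it was 2.40%, with 17 shallower cells left out. That thinned share exceeded the 0.235% to 0.740% of the other 3 epithelial samples.

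The mix of the 2 genes was read from the UMIs of a class. Of the 566 epithelial cells of injured 1, 86 had CD74 UMIs only, 40 had HLA-DRA UMIs only and 26 had both. Over all these cells there were 224 CD74 and 272 HLA-DRA UMIs, so CD74 made up 45.2% (Wilson 95% interval 40.8% to 49.6%), against 33.6% (33.2% to 34.0%) in the leukocytes of the library and 33.4% (29.3% to 37.7%) in its fibroblasts. In injured 2 the share was 42.4% (32.8% to 52.6%) in epithelium and 46.8% (41.9% to 51.6%) in fibroblasts, against 38.7% (38.2% to 39.2%) in leukocytes. With the cells of 10 or more UMIs of either gene set aside, 7 in epithelium of injured 1, the share there was 62.6% (56.1% to 68.7%), and it was 29.96% (24.5% to 36.1%) in fibroblasts of that library, 46.2% (34.6% to 58.1%) in epithelium of injured 2 and 58.8% (45.2% to 71.2%) in endothelium of injured 2. Those cells were chosen by the genes themselves and no leukocytes were set aside, so the shares of the remaining cells are a description. These intervals cover counting error only and treat UMIs as independent of each other. In epithelium of injured 1 those 7 cells held 37.9% of the CD74 UMIs and 69.5% of the HLA-DRA UMIs, so the intervals may be too narrow.

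Of 33 names searched for the wider class II pathway, 18 were in the annotation. Among the chains and the peptide loader, HLA-DMA, which with HLA-DMB exchanges the CD74 fragment for a peptide, was at 1389 CPM in cluster 14, 1016 in macrophages and 452 in B cells, and at 1.69 to 2.59 CPM in fibroblasts, endothelium and epithelium. HLA-DQB1, a beta chain of the DQ molecule, was at 136, 87.0 and 36.4 CPM in cluster 14, macrophages and B cells, and HLA-DPB1, a beta chain of DP, at 59.0, 11.3 and 2.86 CPM. These genes thus had the class order of the members. HLA-DOB, a subunit of the DM inhibitor HLA-DO, was at 12.5 and 10.8 CPM in cluster 14 and B cells and at 2.97 CPM in macrophages.

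CIITA, the coactivator of class II transcription, was at 65.7 ± 9.22 CPM in cluster 14 and 8.18 ± 0.67 in macrophages (SD, n = 4), and at 39.1 in B cells. Its level in fibroblasts, endothelium and epithelium was 0.093, 0.223 and 0.116 CPM. Among the general factors that bind class II promoters, CREB1 was at 22.9 CPM in cluster 14, 25.05 in macrophages, 17.5 in fibroblasts and 31.8 in endothelium. RFX5 was at 2.61, 8.22, 1.91 and 5.03 CPM in that order, and the NFY subunits NFYA, NFYB and NFYC were at 8.64, 7.65 and 16.6 CPM in cluster 14, 7.68, 7.22 and 18.3 in macrophages and 12.2, 25.4 and 6.99 in fibroblasts. None of these 5 was highest in cluster 14 among the 4 cell groups.

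The endosomal proteases were ordered differently. CTSS, cathepsin S, which cuts CD74 in antigen-presenting cells, was at 214 CPM in macrophages, 90.7 in cluster 14 and 53.6 in B cells. CTSB was at 2987 CPM in macrophages and 215 in cluster 14. LGMN, the asparaginyl endopeptidase legumain, was at 1554 and 613 CPM there and at 500.3 CPM in fibroblasts, and CTSV was at 2300, 118 and 882 CPM. Of the co-stimulatory ligands, CD86 was higher in cluster 14 (139 CPM against 37.2 in macrophages), and CD80 was higher in macrophages (125 against 35.0).

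**Figure D5:**
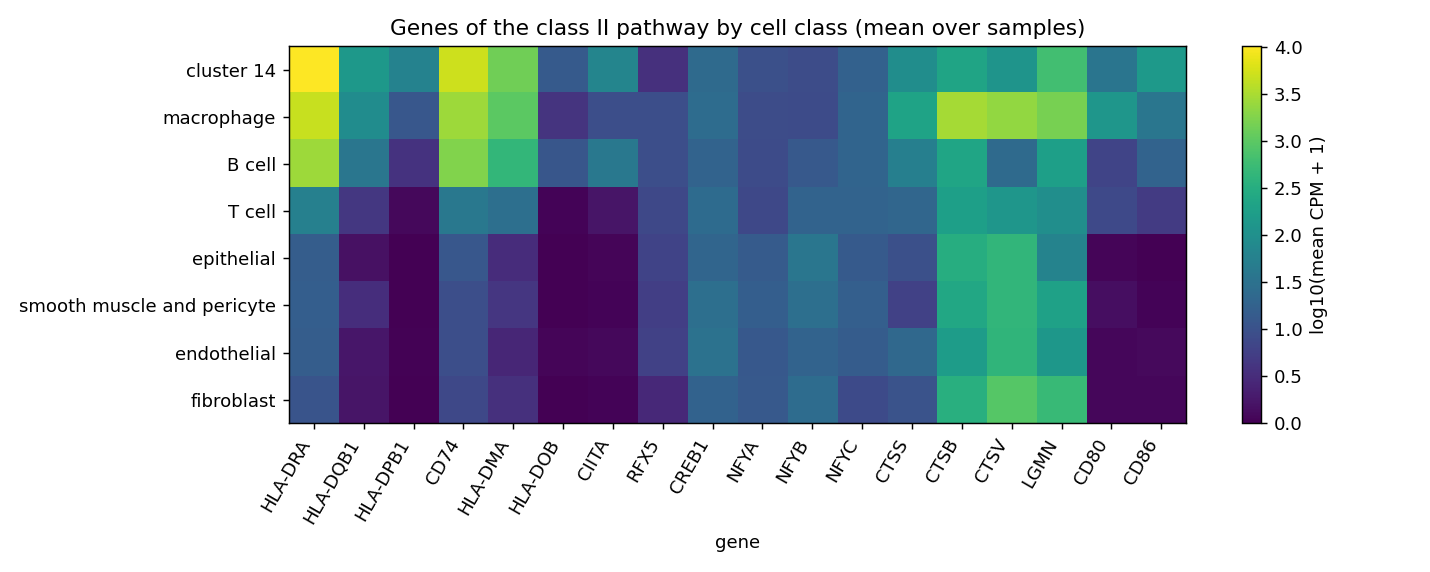
Mean level over libraries of the 18 class II pathway genes found, by cell class, as log10(mean CPM + 1). Colours are to be compared within a gene. HLA-DRA, HLA-DQB1, HLA-DPB1, CD74, HLA-DMA and CIITA are brightest in cluster 14, and CTSB, CTSV and LGMN in macrophages.

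Between injured and normal tissue no gene of the class II list passed in either direction in any of the 7 classes tested with edgeR. In fibroblasts 12 of the 18 were tested, with a median log2 fold change of 0.43, in endothelium 12 with 0.41, in epithelium 11 with 0.04, in macrophages 17 with −0.08 and in cluster 14 14 with −0.28, beside medians of −0.01 to 0.01 for all genes tested. HLA-DMA stood nearest to the members, at 1.78 ± 0.60 in fibroblasts and 2.89 ± 0.66 in endothelium (SE, edgeR adjusted p = 0.389 and 0.516). In cluster 14 HLA-DPB1 was at −1.37 ± 0.33 and CD86 at −1.13 ± 0.25 (edgeR adjusted p = 0.179 and 0.157). Of 16 interferon gamma pathway names 10 were found and of 13 class I pathway names 8, and none of these genes passed in any of the 7 classes.

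Levels of interferon gamma and a target were uneven between the injured libraries. IFNG in T cells was at 89.1 CPM in injured 1, 8.60 in injured 2, 3.02 in normal 1 and 12.9 in normal 2. CXCL9, a chemokine gene induced by interferon gamma, was at 182, 9.48, 11.9 and 2.29 CPM in endothelium in that order. Injured 1 was the highest library for both.

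The genes most like the members were sought over 56 sums of a class or unnamed cluster in a library, 17 classes and clusters in all, by Pearson correlation of log2(CPM + 10). The 5 genes with a symbol most like CD74 were HLA-DRA (r = 0.977), HLA-DMA (0.933), LY86 (0.929), CD83 (0.915) and HLA-DQB1 (0.901). Those most like HLA-DRA were CD74 (0.977), HLA-DMA (0.957), LY86 (0.945), HLA-DQB1 (0.919) and AIF1 (0.892). Sums of 1 library share its depth, and classes share their cells' origin, so these correlations are a description. Genes without a symbol, 3 for CD74 and 4 for HLA-DRA, ranked among them.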

How the data were processed

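The deposited files held UMI counts per gene and barcode, which the authors made from 10x 3′ v3 libraries with Cell Ranger (6.0.1 in the file header). The genome build was not given in the sources used here. Cells with at least 500 UMIs, 200 genes and at most 15% mitochondrial UMIs were kept, as in the study's methods. Seurat 5.3.0 integrated the libraries (2000 variable genes, 30 components, resolution 0.8). 7 class II genes were kept out of clustering. Classes were named from marker lists, and the scoring rule was chosen after seeing the data. Scrublet (scanpy 1.11.5) scored doublets, but none were removed, and it called 0.255% of the cells of normal 1.

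Classes with at least 20 cells per library entered edgeR 4.0.16 (filterByExpr, TMM, R 4.3.3), which was tested on simulated data, without the replicate number. DESeq2 1.42.0 was an alternative. SD is over libraries. SE was derived from the log2 fold change fitted by edgeR and its test statistic. The genes and lists were chosen with earlier results of these data known. Named genes were the members, the class II list and the 5 genes most like each member, and genes of the other lists, CXCL9 and IFNG among them, were chosen after their values were seen. TYROBP was not in the annotation, so PTPRC alone marked leukocyte UMIs in 1 alternative. Libraries with the same number came from no stated pair.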

Additional observations from a re-analysis of the deposited data

How the results depend on the processing

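The fold changes in fibroblasts, endothelium, epithelium, smooth muscle and pericytes, and T cells stayed above 0 under the alternatives run, but in T cells they fell to 0.88 for CD74 and 0.15 for HLA-DRA (edgeR adjusted p = 0.662 and 0.972) when genes lacking a symbol were left out of the clustering, and to 1.73 and 2.77 (0.246 and 0.210) without the highest doublet scores. Of the results for CD74 and HLA-DRA between injured and normal tissue within a class, 184 kept direction and side of the threshold, 38 passed it under an alternative, and 8, all in macrophages, changed sign. The cause was not tested. Unnamed clusters were left out under other clusterings and no counterpart of cluster 14 was sought, so those alternatives were not run for it. Clustering without genes lacking a symbol was chosen after seeing the data.

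DESeq2 called CD74 (2.76) and HLA-DRA (2.81) in fibroblasts, both in endothelium (2.83 and 3.20), in smooth muscle and pericytes (3.34 and 2.76) and in T cells (2.57 and 3.75), with 234 genes called in fibroblasts, 50 in endothelium, 513 in epithelium, 78 in smooth muscle and pericytes, 38 in macrophages, 43 in cluster 14 and 172 in T cells. Without a filter on low counts both genes passed in fibroblasts (2.79 and 2.85), epithelium (2.29 and 2.09), smooth muscle and pericytes (3.38 and 2.80) and T cells (2.68 and 3.86), macrophages were at 0.064 for both, and 534, 967, 298, 202, 242 and 93 genes were called in fibroblasts, epithelium, smooth muscle and pericytes, macrophages, cluster 14 and T cells. With total UMIs as the scale both passed in T cells (2.62 and 3.78), macrophages were at 0.018 and 0.021, and 177, 13, 9 and 85 genes were called in epithelium, macrophages, cluster 14 and T cells. With DESeq2 size factors in edgeR HLA-DRA passed in T cells (3.71), with 76 genes called there and 1 in cluster 14. HLA-DRA in T cells also passed with at least 1000 UMIs and 500 genes per cell (3.70), a mitochondrial limit of 10% (4.31) and no integration (5.00), and without integration HLA-DRA in macrophages was at 0.087.

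The replicate numbers share only a number, as no source pairs them and the deviations of same-numbered libraries correlated at −0.05 to 0.21 across the classes. With the replicate block CD74 and HLA-DRA passed in fibroblasts (2.75 and 2.71) and in smooth muscle and pericytes (3.36 and 2.79), and HLA-DRA in T cells (3.82). The block called 445 genes in fibroblasts, 3 in endothelium, 58 in epithelium, 139 in smooth muscle and pericytes, 0 in macrophages and 77 in cluster 14.

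With 1 library left out, where a lone library is assumed to vary like the rest, the CD74 change ranged from 2.45 to 2.99 in fibroblasts, 2.49 to 3.09 in endothelium, 0.81 to 2.86 in epithelium, 2.39 to 5.11 in smooth muscle and pericytes, −0.14 to 0.055 in macrophages and 2.15 to 3.49 in T cells. HLA-DRA ranged from 2.40 to 3.70 in endothelium, 2.21 to 3.46 in smooth muscle and pericytes, −0.25 to 0.10 in macrophages and 3.15 to 4.21 in T cells. Genes called ranged from 0 to 85 in fibroblasts, 0 to 23 in endothelium, 50 to 476 in epithelium, 2 to 526 in smooth muscle and pericytes, 12 to 115 in macrophages, 3 to 193 in cluster 14 and 0 to 224 in T cells.

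The level of CD74 in macrophages was 3176 CPM with the class II genes kept in the clustering, 2920 with each cell weighted equally and 2859 without the genes lacking a symbol, and HLA-DRA was 5548 CPM with the class II genes in the clustering. In T cells CD74 was at 126 CPM without integration and 179 without genes lacking a symbol, and HLA-DRA at 159.6 and 285.0. The endothelial minus fibroblast level of the same library became −0.074 for CD74 without genes lacking a symbol, and for HLA-DRA −0.18 there, −0.10 with the class II genes in the clustering and −0.023 without integration.

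Differences of the injury change between classes, none of which passed, changed sign in 20 cases. Endothelium minus fibroblasts was −0.53 (CD74) and −0.82 (HLA-DRA) with the class II genes in the clustering, −0.15 and −0.025 at resolution 0.3, −0.88 and −1.16 without genes lacking a symbol, and −0.16 and −0.39 without the 5% highest doublet scores, and CD74 was −0.036 at the mitochondrial limit of 10% and −0.019 without the count filter. Epithelium minus endothelium was 0.039 and 0.068 with the class II genes in the clustering, 0.077 and 0.043 without genes lacking a symbol, and 0.40 and 0.58 without the highest doublet scores. Epithelium minus fibroblasts was 0.044 and 0.088 without integration, 0.18 for CD74 without the highest doublet scores and 0.37 for HLA-DRA at the mitochondrial limit of 10%. Depth limits the non-immune levels, which rest on 94 (CD74, smooth muscle and pericytes) to 588 (HLA-DRA, fibroblasts) UMIs.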
